A study of Mus musculus with 16 samples.

Results

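The Serpina1 and Serpina3 protease inhibitor genes were taken by name from a gene expression table of mouse liver. The table held 57010 genes, and 9 of them were members, namely 5 Serpina1 genes (Serpina1a, Serpina1b, Serpina1c, Serpina1d and Serpina1e) and 4 Serpina3 genes (Serpina3c, Serpina3k, Serpina3m and Serpina3n). Membership rested on the gene names. Poly(A) RNA of whole liver was sequenced from 16 wild-type male C57BL/6J mice, in 4 groups of 4. The control group received neither agent, and the Cd group received cadmium chloride (CdCl2) by intraperitoneal injection at 1.25 mg/kg daily for 7 days. The Se group was fed a diet with selenomethionine (SeMet) at 2 ppm for 3 months, and the Cd+Se group received that diet with the CdCl2 injections over its final 7 days. The methods of the study give the mice as 8 to 12 weeks old. A figure legend of the study gives 8 weeks as the age when the diet began. Livers were collected after treatment, so SeMet-fed mice were by then older than 8 to 12 weeks. The exact age at collection is not given. Whether the controls and the Se mice were injected with vehicle is not given in the sources used here. Each library label names a pair of replicates of 1 mouse for which the table has 1 column. Levels are in TPM, a measure of transcript abundance scaled to gene length and to the same total in every library, so that levels of different genes can be set side by side and the sequencing depth is unknown.

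Serpins are protease inhibitors that present a flexible reactive centre loop as bait. The protease cuts the loop and is trapped by a large change of the serpin's shape, so the loop sequence sets which proteases are held. Alpha-1-antitrypsin, the product of SERPINA1 in people, is secreted by hepatocytes into the blood and inhibits neutrophil elastase, and the mouse carries several copies of this gene. The Serpina3 cluster of the mouse is the expanded counterpart of the human gene for alpha-1-antichymotrypsin, and Serpina3n is an acute-phase gene whose product inhibits cathepsin G and related serine proteases.

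All 9 members lie on chromosome 12 in the GRCm38 build, in which the GENCODE M21 gene models were matched by Ensembl identifier. The 5 Serpina1 genes spanned 230.8 kb and the 4 Serpina3 genes 267.9 kb, with 187.4 kb between the clusters. Coding sequences were 96.3 to 98.5% identical over the 10 pairs of Serpina1 genes and 83.8 to 92.6% identical over the 6 pairs of Serpina3 genes, against 64.4 to 67.7% between the clusters. Reads of such genes can fit more than 1 copy. Of all 100-base windows of the longest coding transcript, the share also found in another gene was 58.5% for Serpina1c, 49.9% for Serpina1a, 29.3% for Serpina1d, 20.6% for Serpina1b and 14.8% for Serpina1e. It was 6.09% for Serpina3m, 4.85% for Serpina3k, 0.204% for Serpina3n and 0% for Serpina3c. How the reads of these windows were shared out is not given in the sources used here. The split between the 5 Serpina1 genes, Serpina1e included, is therefore uncertain, while their sum is less so. The gene models of Serpina3k and Serpina3m also begin at the same position and share 60 exonic bases.

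The reactive centre loop is where the Serpina1 copies differ most, and it is shown because it separates transcripts that are otherwise nearly the same. The 90 coding bases from the hinge of the loop onwards differed at 19 positions among the 5 genes, and pairs were 86.7 to 94.4% identical there, against 96.9 to 99.2% in the rest of the coding sequence. In the sequences that follow, written 5′ to 3′ in the coding direction, capitals mark bases that differ from the commonest base of the 5 genes, or that belong to a tie. The stretches lie in the last exon of each gene in GRCm38, Serpina1a at chr12:103853741-103853830, minus strand, Serpina1b at chr12:103728308-103728397, minus strand, Serpina1c at chr12:103895078-103895167, minus strand, Serpina1d at chr12:103763746-103763835, minus strand and Serpina1e at chr12:103947084-103947173, minus strand.
Serpina1a: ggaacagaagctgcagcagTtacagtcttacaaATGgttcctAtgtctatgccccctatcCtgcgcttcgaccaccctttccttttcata
Serpina1b: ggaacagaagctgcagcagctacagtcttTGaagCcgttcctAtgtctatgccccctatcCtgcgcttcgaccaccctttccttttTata
Serpina1c: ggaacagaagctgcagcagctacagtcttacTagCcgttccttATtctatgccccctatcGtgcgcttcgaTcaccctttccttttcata
Serpina1d: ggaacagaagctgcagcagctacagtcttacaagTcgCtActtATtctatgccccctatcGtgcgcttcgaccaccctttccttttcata
Serpina1e: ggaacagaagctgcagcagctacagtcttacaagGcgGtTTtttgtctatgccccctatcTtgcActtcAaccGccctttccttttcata
Serpina1e had 8 bases in capitals, and each of the other genes had 6. The Serpina1c and Serpina1d loops were the closest pair, with 5 differing bases, and Serpina1e differed from each of the others at 10 to 12 bases.

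The loops of the Serpina3 genes were less alike, at 68.9 to 89.9% over the aligned bases of the 6 pairs. They are printed from the hinge, with the hinge codons in capitals, from the last coding exon in GRCm38, Serpina3c at chr12:104147298-104147387, minus strand, Serpina3k at chr12:104345269-104345358, plus strand, Serpina3m at chr12:104393769-104393858, plus strand and Serpina3n at chr12:104413448-104413537, plus strand.
Serpina3c: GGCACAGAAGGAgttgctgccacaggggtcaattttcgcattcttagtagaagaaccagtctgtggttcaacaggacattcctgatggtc
Serpina3k: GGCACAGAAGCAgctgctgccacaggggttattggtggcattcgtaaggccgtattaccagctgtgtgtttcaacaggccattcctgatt
Serpina3m: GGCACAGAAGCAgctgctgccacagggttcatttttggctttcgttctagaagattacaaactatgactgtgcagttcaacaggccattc
Serpina3n: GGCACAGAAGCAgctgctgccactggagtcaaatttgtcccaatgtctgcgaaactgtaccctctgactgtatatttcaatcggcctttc
The hinge letters were identical in Serpina3k, Serpina3m and Serpina3n, and Serpina3c differed from them in its last hinge codon.

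Of the 9 members, 7 had an upstream sequence in the RefSeq promoter table of build GRCm38.p6, covering 250 bases before to 50 bases after the start. Serpina3k and Serpina3m had no entry. The letters GTTAAT, a half-site of the hepatocyte factor HNF1, were found on either strand in 6 of these 7 windows, among them those of all 5 Serpina1 genes, against 7.1% of 32851 promoters. A C/EBP motif, TTGCNNAA, was found in 4 of 7 windows, all of Serpina1 genes, against 10.8% of all. Neither TTCNNNGAA, a STAT motif present in 8.3% of all windows, nor CAAAGTCCA, an HNF4 motif present in 0.475%, was found in the 7 windows. The Serpina1 windows were 91.7 to 98.4% identical over their aligned bases, so motif matches in them are not separate observations. The closest pair was Serpina1b with Serpina1e. The 66 bases around the HNF1 half-site, in capitals, are shown for that pair because Serpina1e passed the test of Cd+Se against Cd and Serpina1b did not, a contrast between the genes that was not itself tested. They lie at chr12:103738180-103738245, minus strand, and at chr12:103956940-103957005, minus strand.
Serpina1b: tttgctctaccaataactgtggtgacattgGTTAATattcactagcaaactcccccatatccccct
Serpina1e: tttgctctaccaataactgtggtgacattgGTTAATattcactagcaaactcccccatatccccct
The half-site began 26 bases before the RefSeq start in Serpina1b and 78 bases before it in Serpina1e.

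Transcript levels differed widely between the members. By mean TPM over the 16 mice, Serpina1c ranked 27 of all genes at 6183 TPM, followed by Serpina1e (rank 31, 4519 TPM), Serpina3k (rank 35, 4181 TPM), Serpina1b (rank 37, 4162 TPM), Serpina1a (rank 38, 3908 TPM) and Serpina1d (rank 59, 2267 TPM). Serpina3m (rank 436, 219 TPM) and Serpina3n (rank 517, 181 TPM) were lower, and Serpina3c was almost silent at 0.397 TPM (rank 14131). In the control mice the order was Serpina1c, Serpina3k, Serpina1b, Serpina1a, Serpina1e, Serpina1d, Serpina3m, Serpina3n and Serpina3c. The control mice of Serpina3k and Serpina1b overlapped, so these neighbours in the order did not differ beyond their spread, and all other neighbours were apart. Together the 9 genes made up 2.63 ± 0.124% of all TPM in the control group, 2.22 ± 0.263% in the Cd group, 2.87 ± 0.310% in the Cd+Se group and 2.53 ± 0.286% in the Se group (n = 4, SD).

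**Figure D1:**
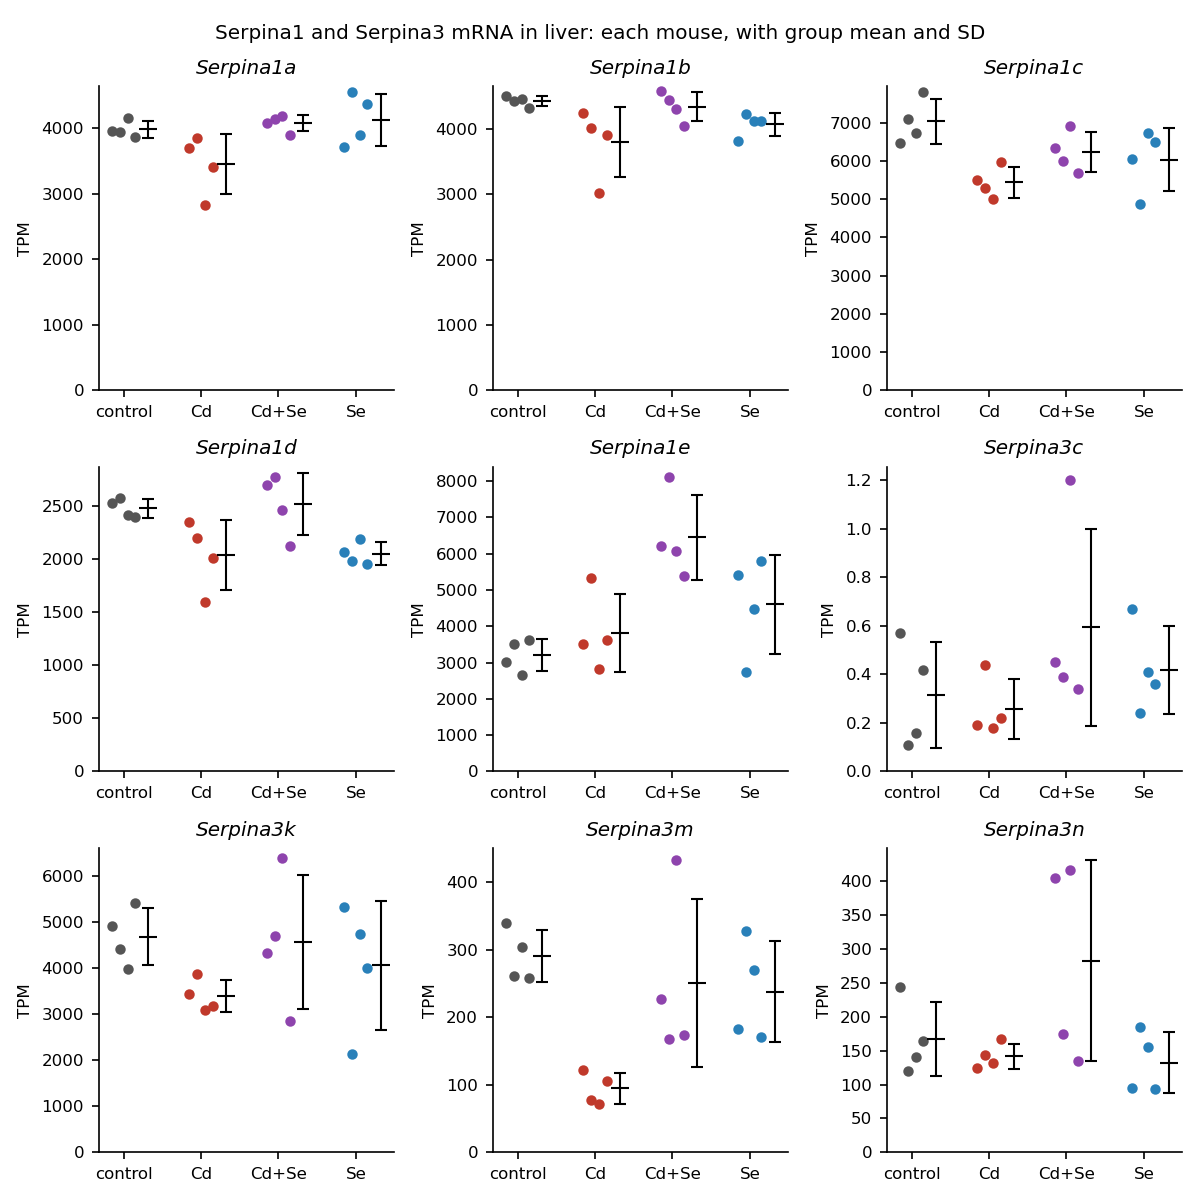
Each panel plots 1 gene, with TPM on the vertical axis from 0 and the groups control, Cd, Cd+Se and Se along the horizontal axis. Points are single mice, and the bars beside them are the group mean and SD (n = 4). The Serpina3m points of the Cd group, 72.4 to 122 TPM, lie below all other Serpina3m points, and the Serpina1e points of the Cd+Se group, 5389 to 8112 TPM, lie above all control points.

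Gene by gene tests used limma on log2(TPM + 1) for the 11766 genes that averaged 1 TPM or more, with Benjamini-Hochberg adjustment and a threshold of 0.05. Serpina3c fell under that minimum, so 8 members were tested in the model. The median of all tested genes was shifted by -0.17 (log2) in Cd against control and by 0.17 in Cd+Se against Cd, and differences are read against these shifts. Metallothionein Mt1, a gene that metals induce, checked the labels, with 3178 to 4899 TPM in the Cd group and 3621 to 6070 TPM in the Cd+Se group against 50.9 to 221 TPM in the controls and 64.3 to 431 TPM in the Se group. Defining hepatocyte markers were abundant in every library (Alb from 22135 to 86650 TPM).

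In the Cd group against control, 2 of the 8 tested members fell and none rose. Serpina3m fell to 0.322 of the control level and Serpina1c to 0.774, both on the log2(TPM + 1) scale. Of all tested genes, 30.8% passed the threshold in this comparison and 24.9% were lower, so 2 of 8 lower members is close to the share among all genes. With every mouse considered, 6 of the 9 members (Serpina1a, Serpina1b, Serpina1c, Serpina1d, Serpina3k and Serpina3m) had all 4 Cd values below all 4 control values, against 27.8% of all tested genes. The Serpina1 copies among these 6 can share reads, so they are not separate observations. The median difference of the 8 tested members was -0.27 (log2) against -0.17 for all tested genes. The difference was negative for 7 of them, but centring each library on its median took Serpina1a to 0.0044 and Serpina3n to 0.03. RNA of whole liver was measured, so fewer cells of a type and less RNA per cell cannot be told apart.

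In the Cd+Se group against the Cd group, 2 of the 8 tested members rose and none fell. Serpina3m was 2.49 times and Serpina1e 1.72 times the Cd level on the log2(TPM + 1) scale. Among all tested genes, 15.9% passed the threshold and 13.6% were higher. All 4 Cd+Se values lay above all 4 Cd values for Serpina1a, Serpina1e and Serpina3m, which is 3 of 9 members against 16.1% of all tested genes. Serpina1a and Serpina1e can share reads, so they are not separate observations. The median difference of the members was 0.34 (log2) against 0.17 for all tested genes. The difference was positive for 8 of 8, although median centring took Serpina1c to -0.00045. This comparison shares its Cd mice with the comparison of Cd and control.

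**Figure D2:**
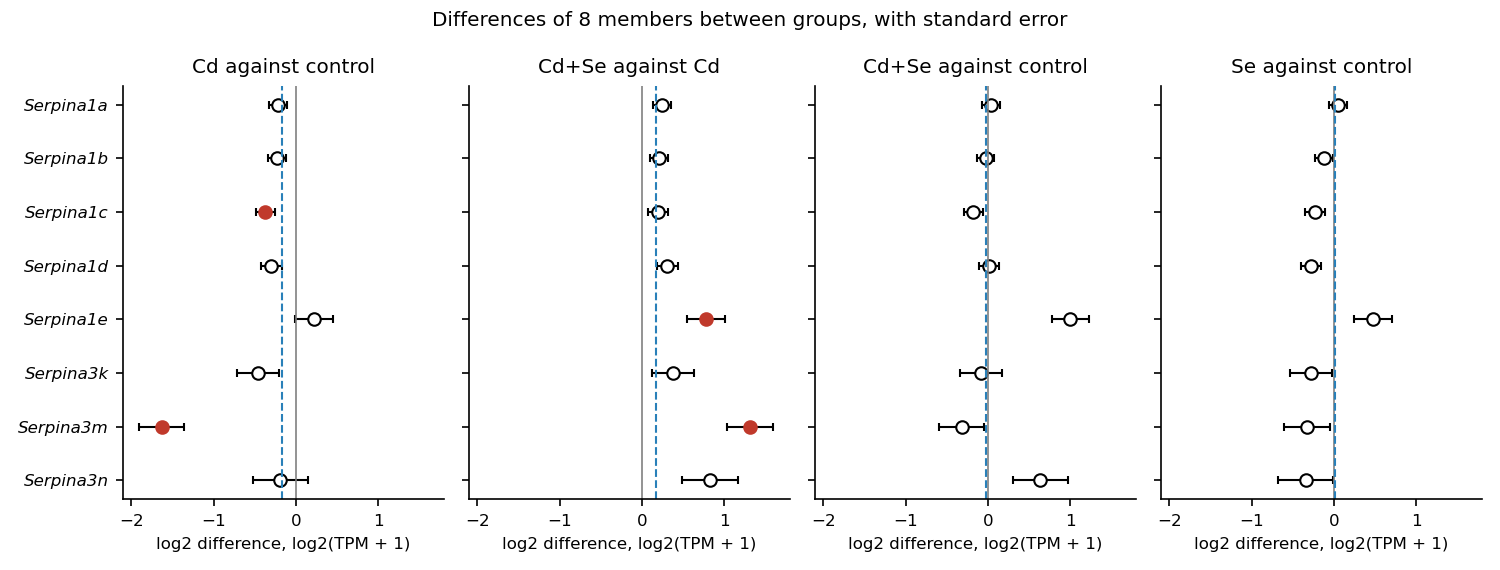
Each panel is 1 comparison, with the log2 difference on the log2(TPM + 1) scale along the horizontal axis and the 8 tested genes on the vertical axis. Points are estimates, bars are standard errors, filled red points passed a limma adjusted p of 0.05, and the dashed line is the median of all 11766 tested genes. Serpina3m lies at -1.63 in Cd against control and at 1.31 in Cd+Se against Cd, farther from the dashed line than the other members in both panels.

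Serpina3m, a secreted liver serpin of the Serpina3 cluster, showed the widest change of the members. Its level was 340.5, 262, 304 and 258 TPM in the 4 control mice and 122, 77.85, 72.4 and 106 TPM in the 4 Cd mice. It was 228, 167, 433 and 174 TPM in the Cd+Se mice and 183, 328, 270.2 and 171 TPM in the Se mice. The Cd group thus lay below each other group without overlap, and the other groups overlapped with each other. Against control, the Cd group was lower by a log2 difference of -1.63 (SE 0.277, limma adjusted p = 0.000780), or -1.46 beyond the shift of all genes. The Cd+Se group was higher than the Cd group by 1.31 (SE 0.277, limma adjusted p = 0.00978), or 1.14 beyond that shift. The first call held in all 23 alternatives tried, and the second in 22 of 23. It was lost when only the Cd and Cd+Se groups entered the model (adjusted p = 0.0634). Without Cd+Se mouse 15, whose 433 TPM was far above the other 3, the Cd+Se to Cd difference was 1.01 (log2).

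Serpina3k, contrapsin, was the most abundant of the 4 Serpina3 transcripts and encodes a plasma inhibitor of trypsin-like proteases. Its level was 4921, 4432, 3982.5 and 5412 TPM in the control group and 3453, 3872, 3089.8 and 3186 TPM in the Cd group, and the groups did not overlap. It was 4328, 4713, 6404 and 2853 TPM in the Cd+Se mice and 5343.5, 2141, 4758 and 4012 TPM in the Se mice. Both SeMet-fed groups were spread widely, with 1 mouse of each below every Cd mouse. The difference of Cd and control was -0.46 (SE 0.256) and did not pass the test (limma adjusted p = 0.184). With only those 2 groups in the model it passed (adjusted p = 0.0260). The difference of Cd+Se and Cd was 0.38 (limma adjusted p = 0.3205). The Serpina3m level per Serpina3k level was 6.30 ± 1.25% in control, 2.81 ± 0.745% in Cd and 5.42 ± 1.39% in Cd+Se mice (SD, n = 4 each). In the Se group it was 3.42, 15.3, 5.68 and 4.27%, the high value being that of mouse 40, in which Serpina3k was lowest.

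Serpina3n, the acute-phase member, varied mostly between mice of the Cd+Se group. Control mice had 244, 119.7, 141 and 164 TPM and Cd mice 125, 143, 132 and 167 TPM. Cd+Se mice had 404, 175, 417 and 135 TPM, and Se mice 95.3, 185, 155 and 93.5 TPM. Mice 13 and 15 of the Cd+Se group were above all other mice, and mice 14 and 16 were within the range of the control group. No difference of Serpina3n passed the test. The Cd to control difference was -0.19 (SE 0.337, limma adjusted p = 0.698), and without control mouse 27, the highest of its group, it was 0.0084. The Cd+Se to Cd difference was 0.83 (SE 0.337, limma adjusted p = 0.10). Without Cd+Se mouse 16 the latter was 1.13, with an adjusted p of 0.0364.

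Serpina3c, whose product binds kallikreins, was near the bottom of the scale in every mouse. Its level was 0.57, 0.11, 0.16 and 0.42 TPM in control, 0.19, 0.44, 0.18 and 0.22 TPM in Cd, 0.45, 0.39, 1.2 and 0.34 TPM in Cd+Se and 0.67, 0.24, 0.41 and 0.36 TPM in the Se group. All groups overlapped. In exact two-sided permutation tests of 4 against 4 mice, which cannot go below p = 0.0286, the smallest p of 5 comparisons was 0.0857 for Cd+Se against Cd (0.429 adjusted over the 5). The upstream windows of Serpina3c and Serpina3n, genes with 0.397 and 181 TPM on average, were 93.5% identical over 294 aligned bases. Their longest stretch without a gap, 254 bases in GRCm38.p6 at chr12:104153866-104154119, minus strand, and at chr12:104406458-104406711, plus strand, differed at 18 bases, which are in capitals.
Serpina3c: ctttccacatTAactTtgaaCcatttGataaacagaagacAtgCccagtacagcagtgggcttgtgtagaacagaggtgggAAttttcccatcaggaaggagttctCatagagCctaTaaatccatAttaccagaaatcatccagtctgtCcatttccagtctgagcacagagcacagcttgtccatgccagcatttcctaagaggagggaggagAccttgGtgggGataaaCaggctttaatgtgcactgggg
Serpina3n: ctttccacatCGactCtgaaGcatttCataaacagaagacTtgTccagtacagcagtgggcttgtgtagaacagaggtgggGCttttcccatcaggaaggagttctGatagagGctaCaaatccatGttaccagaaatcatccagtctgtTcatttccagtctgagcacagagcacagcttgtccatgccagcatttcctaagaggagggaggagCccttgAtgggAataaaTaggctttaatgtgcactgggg

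Serpina1c, the alpha-1-antitrypsin copy with the highest mean over the 16 mice, was the other member that fell in the Cd group. Control mice had 6481, 7099.5, 6742 and 7813 TPM and Cd mice 5505, 5299, 4997 and 5967 TPM. Cd+Se mice had 6337, 5993, 6907 and 5675.5 TPM, and Se mice 6044, 4866, 6724 and 6484 TPM. The Cd group lay below the control group without overlap, and the Cd+Se and Se groups overlapped with both. In the Cd+Se group Serpina1e had the higher mean, 6449 against 6228 TPM, within the uncertain split of reads between the copies. The Cd to control difference was -0.37 (SE 0.119, limma adjusted p = 0.0280), or -0.20 beyond the shift of all genes. Between Cd+Se and Cd the difference was 0.19 (limma adjusted p = 0.270). The call in Cd against control was lost in 8 of 23 alternatives. The adjusted p was 0.0639 without control mouse 28, 0.0510 without control mouse 29, 0.0837 without control mouse 30, 0.0572 without Cd mouse 2 and 0.0702 without Cd mouse 5. It was 0.148 with quantile normalization, 0.487 with median centring and 0.138 with no filter on low values, which raised the number of genes tested to 27943.

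Serpina1a, Serpina1b and Serpina1d, the remaining alpha-1-antitrypsin copies of the cluster, differed little from the shift of all genes in Cd against control. Serpina1a was 3959.8, 3939.6, 4163 and 3860.4 TPM in the control group, 3704, 3858, 2829 and 3412 TPM in the Cd group, 4073, 4137, 4183 and 3901 TPM in the Cd+Se group and 3707, 4557, 3889.6 and 4364 TPM in the Se group. Its Cd values lay below those of the control and Cd+Se groups without overlap, the highest Cd value being 3857.7 TPM and the lowest control value 3860.4 TPM. Serpina1b was 4501, 4427, 4458 and 4330.3 TPM in the control group, 4249, 4021, 3020.1 and 3904 TPM in the Cd group, 4583, 4439.8, 4308 and 4051 TPM in the Cd+Se group and 3816, 4232, 4127 and 4123 TPM in the Se group. All its Cd values and all its Se values lay below the control values. Serpina1d was 2523, 2575, 2414 and 2388 TPM in the control group, 2346, 2191, 1589.95 and 2011 TPM in the Cd group, 2691, 2771, 2459.95 and 2122 TPM in the Cd+Se group and 2065, 1983, 2189.8 and 1952 TPM in the Se group. It too was lower in every Cd and Se mouse than in any control mouse. In Cd against control the differences were -0.22 for Serpina1a, -0.23 for Serpina1b and -0.30 for Serpina1d, and none passed the test (limma adjusted p = 0.147, 0.111 and 0.0763). Beyond the shift of all genes, they were -0.044, -0.061 and -0.125. With single mice left out, the smallest in size were -0.12, -0.13 and -0.18 before that shift was taken off. Cd mouse 5 had the lowest value of all 16 mice for each of the 3 genes. Serpina1d passed the test with quantile normalization (adjusted p = 0.00626) and without Cd mouse 1 (0.0365). In the other direction, Cd+Se differed from Cd by 0.25 for Serpina1a, 0.20 for Serpina1b and 0.31 for Serpina1d, again without passing the test (limma adjusted p = 0.127, 0.197 and 0.0910). Beyond the shift of all genes, these were 0.079, 0.035 and 0.14. Without Cd mouse 1, the adjusted p of Serpina1d in that comparison was 0.0472.

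Serpina1e was the only Serpina1 copy that passed the test of Cd+Se against Cd, a contrast with the other copies that was not itself tested. Control mice had 3025, 3523, 2652 and 3627 TPM, and Cd mice 3506, 5324, 2816 and 3614 TPM. Cd+Se mice had 6218, 8112, 6078 and 5389 TPM, and Se mice 5398, 2742, 4475 and 5798 TPM. All Cd+Se values lay above all control and all Cd values, the Cd group overlapped with the control group, and the Se group was split, with mouse 40 inside the control range and the other 3 mice above it. The Cd+Se to Cd difference was 0.78 (SE 0.228, limma adjusted p = 0.0311), or 0.61 beyond the shift of all genes. The call was lost in 8 of 23 alternatives. The adjusted p was 0.0524 without Cd mouse 1, 0.108 without Cd mouse 5, 0.0609 without Cd mouse 6, 0.0963 without Cd+Se mouse 14 and 0.0524 without Cd+Se mouse 15. It was 0.0967 with no filter on low values, 0.109 with median centring and 0.0726 with only the groups compared.

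The difference of Serpina1e between Cd+Se and control was 1.002 (SE 0.228), a level 2.00 times that of control, and did not pass the test (limma adjusted p = 0.0694). It passed without Se mouse 40 (adjusted p = 0.0168), a library that enters the comparison only through the shared estimate of the spread. The difference of Se and control was 0.48 (SE 0.228, limma adjusted p = 1). The test of whether the response to Cd differed between diets gave 0.30 (SE 0.322, limma adjusted p = 0.609) for Serpina1e.

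The Serpina1e part of all Serpina1 transcripts differed between the groups. Its share of the summed Serpina1 level was 14.8, 16.3, 12.98 and 16.5% in control mice and 18.2, 25.7, 18.5 and 19.1% in Cd mice. It was 26.0, 31.9, 25.4 and 25.5% in Cd+Se mice and 25.7, 14.9, 20.9 and 25.5% in Se mice. Every Cd mouse and every Cd+Se mouse lay above every control mouse, and Cd mouse 2 lay within the Cd+Se range. The Serpina1c share was 33.3% on average in control, 29.6% in Cd, 26.4% in Cd+Se and 28.8% in Se mice. The summed Serpina1 level was 21125 ± 792 TPM in control, 18540.4 ± 2322 TPM in Cd, 23607 ± 1798 TPM in Cd+Se and 20884 ± 1820 TPM in the Se group (n = 4, SD). The sum was above that of every Cd mouse in each Cd+Se mouse. A share within a sum does not show which part moved, and these ratios were given no test.

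**Figure D3:**
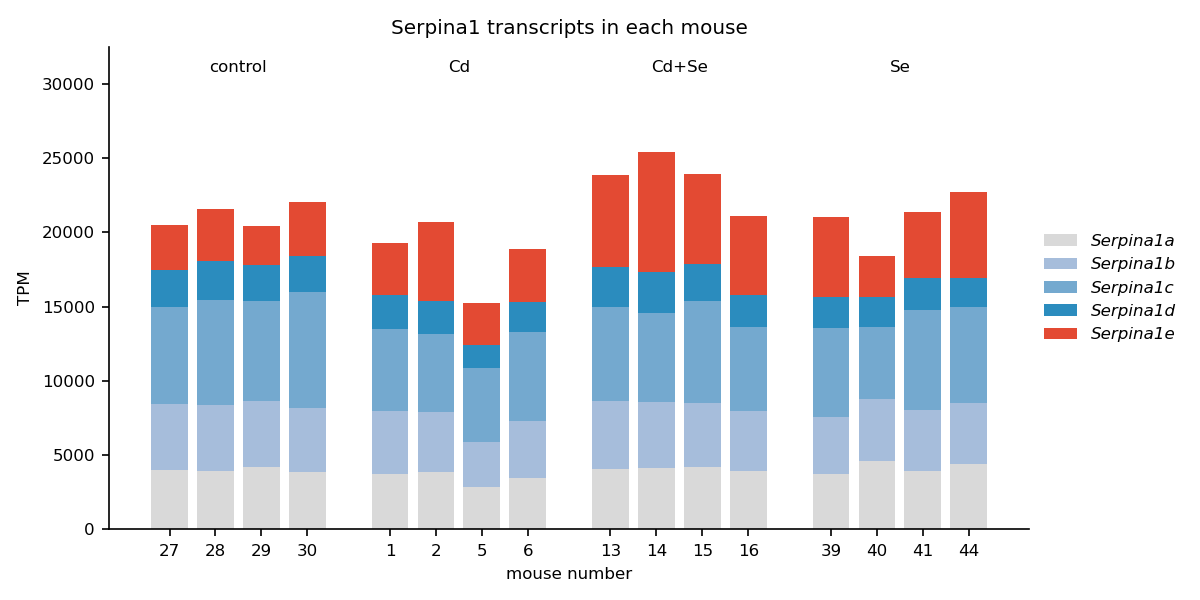
Stacked bars show the TPM of the 5 Serpina1 genes in each mouse, with mouse numbers along the horizontal axis and the groups named above them. The red part, Serpina1e, is 12.98 to 16.5% of the bar in control mice and 25.4 to 31.9% in Cd+Se mice, and the shortest bar is that of Cd mouse 5.

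Se supplementation without Cd was examined next. In Se against control, limma called 0 of the 8 tested members and 0% of all genes. At an unadjusted p under 0.05 there was 1 member, Serpina1d (-0.27, SE 0.123, unadjusted p = 0.0399), among 454 genes, or 3.86% of those tested. Serpina1b and Serpina1d lay below control without overlap, which is 2 of 9 members against 1.79% of all tested genes. These 2 copies can share reads and were correlated over the 16 libraries (r = 0.88), so they are not separate observations. In Cd+Se against control, limma called 0 of 8 members, against 0.484% of all genes, and 1 member, Serpina1e, had an unadjusted p under 0.05, as did 10.9% of all genes. Serpina1e was also the only member of the 9 that lay above control without overlap, as 3.88% of tested genes did. In Cd+Se against Se, 0 of 8 members passed, against 0.714% of all genes, and 3 members had an unadjusted p under 0.05, among 10.9% of all genes. These were Serpina3n (0.98, SE 0.337, limma adjusted p = 0.254), Serpina1e (0.53, adjusted p = 0.403) and Serpina1d (0.29, adjusted p = 0.396).

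The interaction, which asks whether the Cd effect differed between the SeMet diet and the control diet, was called for 0 of 8 members by limma, against 1.04% of all genes. The latter share rested on single libraries, since the 122 genes called became 2 without control mouse 29, 3 without Cd+Se mouse 14 and 348 without Se mouse 40. At an unadjusted p under 0.05 there were 5 members, among 21.3% of all genes. Serpina3m was closest to the threshold, at 1.64 (SE 0.391, limma adjusted p = 0.0531), and it passed in 5 of 22 alternatives. The adjusted p was 0.0329 without Se mouse 40, 0.0394 without Cd mouse 1, 0.0233 with quantile normalization, 0.0376 with median centring and 0.0477 with a minimum mean of 5 TPM. Serpina1d followed at 0.59 (adjusted p = 0.0913), then Serpina1c at 0.42 (adjusted p = 0.172) and Serpina3n at 1.17 (adjusted p = 0.178). The members' median was 0.50 against 0.16 for all tested genes.

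Correlations between members are given as a description. Over the 16 libraries, Pearson r of log2(TPM + 1) was 0.88 for Serpina1b with Serpina1d, 0.82 for Serpina1a with Serpina1b and 0.77 for Serpina1c with Serpina3k. Serpina1e had an r of 0.13 to 0.34 with the other Serpina1 copies. With group means removed, r was 0.86 for Serpina1b with Serpina1d, 0.85 for Serpina1a with Serpina1b and 0.75 for Serpina3m with Serpina3n. Serpina1e then had an r of 0.56 with Serpina1c, 0.46 with Serpina1d, 0.25 with Serpina1b and 0.13 with Serpina1a, and of 0.68 with Serpina3k. All 36 pairs share libraries and their scaling, and near-identical copies can share reads.

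The genes outside the 9 members whose levels were most like theirs were found by the highest Pearson r over the 16 libraries among all tested genes. Serpina1b was closest to Fga, fibrinogen alpha chain (r = 0.94), and C1s1, a protease of complement (0.94), and Serpina1d to Fn1, fibronectin (0.90), and Plg, plasminogen (0.90). Serpina3n was closest to Itih3, a heavy chain of the inter-alpha-trypsin inhibitor (0.95), and to Cd302 (0.91), with Itih3 at 655 and 653 TPM in the Cd+Se group 13 and 15 against 419 and 277 TPM in mice 14 and 16. Serpina3m was closest to Fgf1 (0.95) and Mat1a (0.95), the methionine adenosyltransferase of the liver, which averaged 1018 TPM in control, 533 TPM in Cd and 1076 TPM in the Cd+Se group. Serpina1c was closest to Abat (0.92), which breaks down the transmitter GABA, and Gpat4 (0.89), Serpina1a to Rab3ip (0.97) and Tmem106b (0.96), and Serpina3k to Aadat (0.86) and Ugt3a1 (0.80). Serpina1e had no gene above 0.75, its closest being the long non-coding RNA ENSMUSG00000120142 (0.75) and Zfp426 (0.74), and Serpina3c was closest to Xrcc4 (0.83) and B3galt1 (0.80).

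Other serpin genes were examined beside the members. Of 16 other clade A genes, 7 could be tested, and in the Cd group 2 rose and none fell, where 5.82% of all tested genes were higher. These were Serpina3g (0.62, limma adjusted p = 0.0394) and Serpina3f (0.51, adjusted p = 0.0222), members of the Serpina3 cluster at low levels. Serpina3f averaged 0.815 TPM in control, 1.56 TPM in Cd and 2.94 TPM in the Cd+Se group, and its rise from Cd to Cd+Se passed the test (0.60, limma adjusted p = 0.0198). Of 15 other serpins secreted by or present in liver, 13 were tested. In the Cd group 3 of them fell, close to the 24.9% lower of all tested genes. These were Serpinb6a (-0.75, limma adjusted p = 0.00242), Serpinb9, the granzyme B inhibitor (-0.49, 0.0460), and Serpind1, heparin cofactor II (-0.40, 0.0403). Between Cd and Cd+Se, where 13.6% of all tested genes were higher, Serpinb6a (0.59, limma adjusted p = 0.0207) and Serping1, the C1 inhibitor (0.45, 0.0324), rose. The median difference in Cd against control was 0.32 for the first list and -0.16 for the second. It was -0.17 for all tested genes and -0.27 for the members.

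Of 20 protease genes that serpins of these clades or other plasma inhibitors can meet, 9 were expressed enough to be tested. Tmprss6, a membrane protease of hepatocytes that represses hepcidin, was the only one called, being lower in the Cd than in the control group (-0.65, limma adjusted p = 0.00287) and higher in the Cd+Se than in the Cd group (0.54, adjusted p = 0.0190). Of all tested genes, 24.9% were lower in the first of these comparisons and 13.6% were higher in the second. The median difference of the 9 genes was -0.04 in Cd against control, beside -0.17 for all tested genes.

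Genes of hepatocyte transcription factors and of interleukin-6 signalling, which control many plasma protein genes of the liver, were lower in part with Cd. Of 21 tested, 8 fell and none rose, where 24.9% of all tested genes were lower, and the median difference was -0.35 against -0.17 for all genes. Onecut1 averaged 17.5 TPM in control and 2.81 TPM in the Cd group (-2.40, limma adjusted p = 0.0270). Low Onecut1 values were not confined to mice given Cd. The Se mice had 5.91, 3.13, 3.94 and 34.9 TPM, and the Cd+Se mice 8.09, 46.6, 0.98 and 4.59 TPM. Foxa3 averaged 48.2 and 21.96 TPM (-1.09, limma adjusted p = 0.000410), Il6st, the signalling subunit of the interleukin-6 receptor, 21.6 and 10.6 TPM (-0.98, 0.000533), and Hnf4a 152 and 86.6 TPM (-0.81, 0.00173). Between Cd and Cd+Se, 6 of the 21 rose and none fell, where 13.6% of all genes were higher, and the median was 0.43 against 0.17. The 4 largest differences among the 6 were those of Il6st (0.89, limma adjusted p = 0.00534), Foxa3 (0.76, 0.0111), Jak1 (0.70, 0.00686) and Hnf4a (0.58, 0.0239). Il6st was also called in the interaction (0.99, limma adjusted p = 0.0453). Among the members, Serpina3m was called lower in Cd against control and higher in Cd+Se against Cd, comparisons that share their Cd mice. A link between these genes and Serpina3m was not tested.

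Several acute-phase genes rose with Cd. Of 20 tested acute-phase genes outside the serpins, 7 rose and 1 fell in Cd against control, where 5.82% of all tested genes were higher, with a median difference of 0.76 against -0.27 for the members. Saa3, a serum amyloid A gene, averaged 13.3 TPM in control and 173 TPM in the Cd group (3.58, limma adjusted p = 0.000118), and Saa2 967 and 3679 TPM (3.36, 0.0496). Lcn2, lipocalin 2, averaged 19.3 and 125 TPM (3.21, limma adjusted p = 0.0112), and Apcs, serum amyloid P, 117 and 276 TPM (1.27, 0.0105). Serpina3n, the acute-phase serpin, averaged 167 TPM in control and 142 TPM in the Cd group. Control mouse 27 stood apart from the other 3 control mice in several of these transcripts. Its Saa2 level was 3309.6 TPM against 35.2 to 355 TPM in the others, above Cd mice 1 and 2 at 1003 and 2848 TPM, and its Lcn2 level was 55.05 TPM against 3.71 to 13.2 TPM. Apcs stood at 174 TPM in that mouse against 92.8 to 102 TPM, and Itih3 at 439 against 287 to 351 TPM, while Saa3 was not high (11.02 against 13.2 to 15.1 TPM). In a fit without this mouse, chosen after seeing the data, 11 of the 20 genes rose and 1 fell, with a median difference of 0.92, and the difference was 4.53 for Saa2 (limma adjusted p = 0.0108), 3.94 for Lcn2 (0.00453) and 1.47 for Apcs (0.00824). From Cd to Cd+Se, C3, the central complement component, was the only one called (0.79, limma adjusted p = 0.0154). Saa3 stood at 488 and 426 TPM in the Cd+Se group 13 and 15, the mice with high Serpina3n, and at 176 and 222 TPM in mice 14 and 16.

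Abundant plasma protein genes were divided. Of 16 tested, 4 rose and 1 fell in Cd against control, beside the 5.82% higher and 24.9% lower of all genes. Trf, transferrin (0.69, limma adjusted p = 0.00491), Apoa2, an apolipoprotein (0.56, 0.00307), and Fetub, fetuin B (0.55, 0.0248), rose, and Mug1, a murinoglobulin that traps proteases of many kinds, fell (-0.59, 0.0449). From Cd to Cd+Se 2 rose, Mug1 (0.81, limma adjusted p = 0.0205) and Mug2 (0.76, 0.0498), and 2 fell, Apoc3 (-0.52, 0.0128) and Apoa2 (-0.50, 0.0150).

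Genes of the secretory route of alpha-1-antitrypsin also changed in both directions. Of 20 tested, 7 fell and 2 rose in Cd against control, beside 24.9% lower and 5.82% higher of all genes, and the median difference was -0.08 against -0.17. With median centring, 7 of the 20 rose and 5 fell, with a median of 0.14. Lman1, the cargo receptor that carries alpha-1-antitrypsin out of the endoplasmic reticulum, fell (-0.80, limma adjusted p = 0.00363), as did Sec23a, a coat protein of the transport vesicles (-0.77, 0.00254), and Man1b1, a mannosidase of glycoprotein degradation (-0.57, 0.0116). Syvn1, a ubiquitin ligase that marks misfolded proteins for degradation, rose (0.70, limma adjusted p = 0.0437). From Cd to Cd+Se, Sec23a (0.54, limma adjusted p = 0.0320) and Man1b1 (0.49, 0.0416) rose and Sec24d (-0.43, 0.0471) fell.

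**Figure D4:**
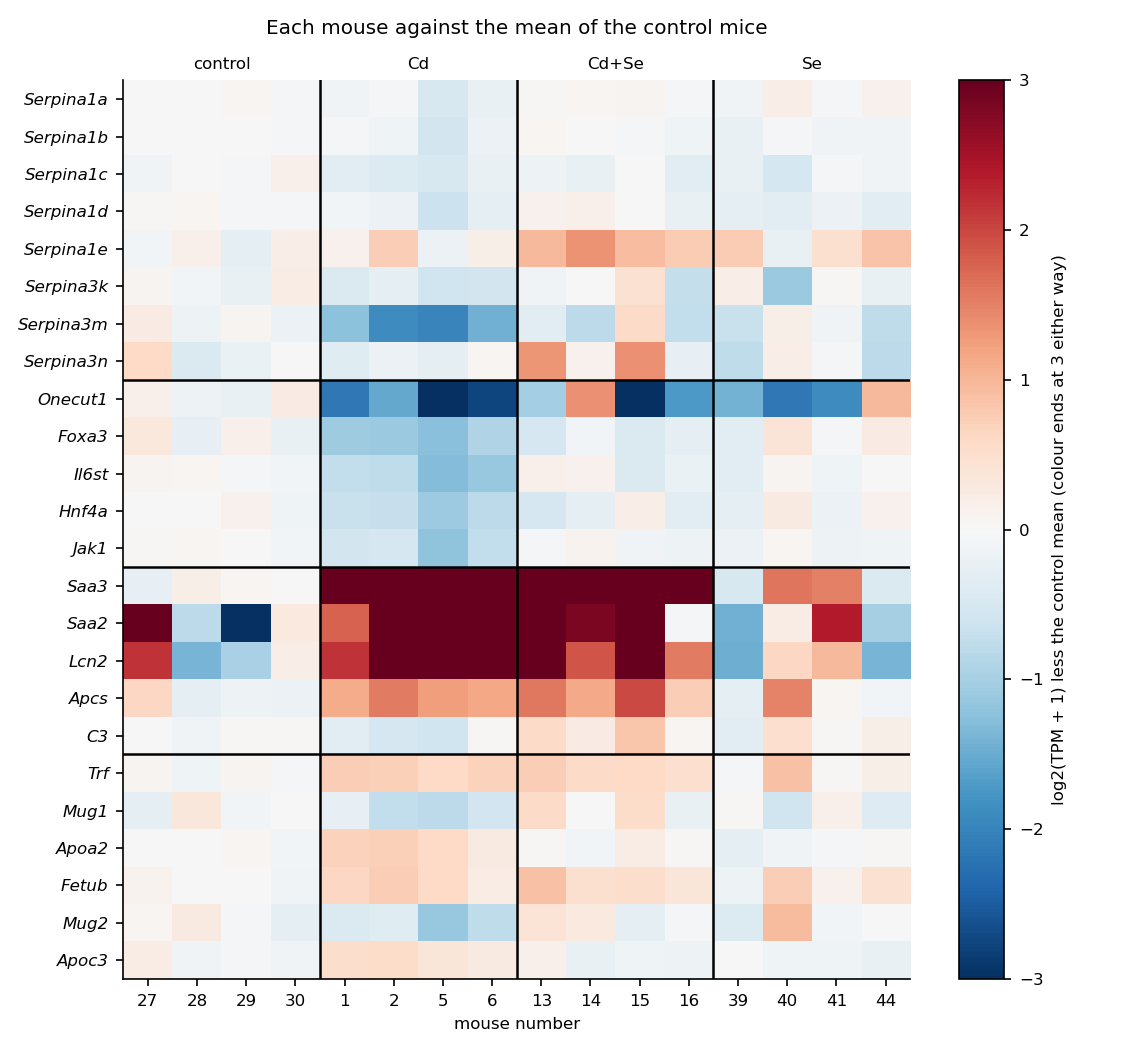
Rows are the 8 tested members and, below lines, the named genes of the transcription factor and interleukin-6, acute-phase and plasma protein lists, and columns are the 16 mice by group. Colour is log2(TPM + 1) less the mean of the control mice, red above and blue below, and ends at 3 in either direction. Serpina3m is blue in all 4 Cd mice, as Foxa3, Il6st, Hnf4a and Jak1 are, while Saa3 is dark red in all 8 mice that received Cd.

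Markers of other liver cells are given beside the shares of all genes in Cd against control, 24.9% lower and 5.82% higher. All 5 Kupffer cell markers fell in Cd against control, their summed level being 100.6 to 124.7 TPM in control, 33.9 to 52.6 TPM in Cd, 29.8 to 62.9 TPM in Cd+Se and 54.7 to 137.5 TPM in the Se group. Of 4 tested neutrophil markers 3 rose, and the sum of the 5 on the list was 6.58 to 16.7 TPM in control, 32.5 to 41.3 TPM in Cd, 45.9 to 76.6 TPM in Cd+Se and 5.85 to 9.67 TPM in the Se group, with Ly6g at 0 in 11 of 16 libraries. Of 8 hepatocyte markers 2 fell (Cps1 and Hnf4a), close to the share of all genes. The sum of all 8 was 58570 to 80756 TPM in control and 38765 to 65002 TPM in the Cd group. Most of that sum was Alb, on average 52073 of 70321.5 TPM in control. Mean levels in the Cd group were lower for Alb, Cps1, Cyp2e1 and Hnf4a and higher for Apoa1, Asgr1, Tat and Ttr. Endothelial markers fell for 2 of 5 and stellate cell markers for 1 of 5, the latter below the share of all genes, and both of 2 tested monocyte markers rose, and markers of cholangiocytes, T cells and B cells were too low to be tested. Of the pancreas list Cela1 alone was above 1 TPM on average, and Pnlip, Cpa1 and Prss2 were at 0 in at least 14 of 16 libraries. The part of these cell types in the differences of the serpin genes was not tested.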

How the data were processed

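Livers of 16 mice were collected, and RNA was extracted with Trizol, enriched for poly(A) RNA and sequenced on an Illumina NovaSeq, per the labels. The deposited table holds TPM per gene, which the authors made from the reads. Their processing notes name fastp, HISAT2, StringTie and the build GRCh38, without versions; that build is human, whereas the gene identifiers are those of mouse Ensembl, and the table gives no coordinates. Locations and transcripts were therefore taken from GENCODE M21 (GRCm38) by identifier, and upstream sequences from RefSeq (GRCm38.p6). Library sums lay between 999998.8 and 1000001.2 TPM, so depth and counting error are unknown.

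Groups were taken from the labels. The 11766 genes averaging 1 TPM or more over the 16 libraries were fitted on log2(TPM + 1) in 1 model with a mean per group, using limma 3.58.1 in R 4.3.3 with a trended prior, and p-values were adjusted over all these genes. A fold on this scale understates the change of low genes. Serpina3c was tested in R by an exact two-sided permutation test (70 arrangements). Its p-values were adjusted over 5 comparisons with SciPy 1.17.1. The fit was tested on simulated data. Alignments used Biopython 1.88. The labels do not say that the samples came from separate cages or litters, so p-values measure the spread between these mice.

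All 9 members were described in every mouse. Of each gene list, up to 4 genes with the largest difference past the threshold were named for the Cd effect (Cd and control) and as many for the diet effect under Cd (Cd+Se and Cd), and for each member the 2 non-member genes of highest r. The members and the lists were chosen with earlier results of these data known. Capitals in the Serpina3 loops and the stretch chosen for Serpina3c, whose hinge letters differ from the rule, were set after the data were seen. Alternatives were another pseudocount, other filters, quantile normalization, median centring, only the groups compared, a prior without trend and leaving out each mouse. 1 gene of the lists is not reported here.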

Additional observations from a re-analysis of the deposited data

Results flagged for a closer look

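Of 36 groups of 4 mice (9 genes in 4 groups), 2 held a mouse whose gap to its nearest neighbour was above Dixon's 95% critical value for 4 samples, where chance alone flags about 1 in 20 groups, or 1.8 of 36. Both concerned Serpina3c, the member near 0. In the Cd group, mouse 2 had 0.44 TPM against 0.18 to 0.22 TPM in the other 3 mice, a gap of 0.846 of the range. In the Cd+Se group, mouse 15 had 1.2 TPM against 0.34 to 0.45 TPM in the others, a gap of 0.872 of the range. Cd+Se mouse 15 also had the highest Serpina3m, Serpina3n and Serpina3k level of its group, at 433, 417 and 6404 TPM.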

How the results depend on the processing

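Of 1096 values of single members under other settings, 1044 kept their direction and their side of the threshold, 17 lost a call, 11 gained one and 24 changed sign; the lost and gained calls that touch a described result stand beside it. The number of members past the threshold in Cd against control, 2 as reported, was 1 with no filter on low values and with median centring, and 1 to 3 when each mouse was left out in turn. For Cd+Se and Cd, 2 as reported, it was 1 with no filter and with median centring, 0 with only the groups compared, and 1 to 3 without single mice. In the interaction, 0 as reported, it was 1 with a minimum mean of 5 TPM, quantile normalization or median centring, and 0 to 1 without single mice, as it was in Cd+Se against control. The differences whose direction changed lay between -0.28 and 0.19 as reported. With quantile normalization, Cd+Se against control became -0.17 for Serpina1a and -0.12 for Serpina1d, and Cd+Se against Se became -0.0529 for Serpina1b and -0.0082 for Serpina3m. With median centring, Cd against control became 0.0044 for Serpina1a, 0.0302 for Serpina3n and 0.17 for Serpina3c, Cd+Se against Cd -0.00045 for Serpina1c, and Cd+Se against Se 0.0199 for Serpina1a. Leaving out single mice gave -0.13 to 0.0355 for Serpina3c and -0.33 to 0.0084 for Serpina3n in Cd against control. For Cd+Se against control it gave -0.0360 to 0.0924 for Serpina1d, -0.0549 to 0.0044 for Serpina1b and -0.26 to 0.12 for Serpina3k. For Cd+Se against Se it gave -0.29 to 0.18 for Serpina3m, -0.0654 to 0.0338 for Serpina1a, -0.0456 to 0.11 for Serpina1c, -0.0887 to 0.40 for Serpina3k and -0.0196 to 0.23 for Serpina3c. In Se against control it gave -0.00060 to 0.10 for Serpina1a and -0.43 to 0.0049 for Serpina3k. The cause of these changes was not tested. Over all genes, the split in Cd against control was 685 higher and 2934 lower as reported, 1710 and 2276 with quantile normalization, and 2260 and 1804 with median centring. Between Cd+Se and Cd it was 1600 and 276 as reported, 1170 and 908 with quantile normalization, 937 and 1272 with median centring, 929 and 202 with no filter, and 47 and 19 with only the groups compared, which leaves 8 libraries in the model. In the interaction it was 106 higher and 16 lower as reported, 328 and 196 with quantile normalization, 315 and 416 with median centring, and 20 and 6 with no filter. Between Cd+Se and control it was 37 and 20 as reported, 62 and 42 with quantile normalization, 65 and 36 with median centring, 15 and 11 with a minimum mean of 5 TPM, and 11 and 7 with only the groups compared. Between Cd+Se and Se it was 64 and 20 as reported, 22 and 9 with that minimum, and 8 and 3 with only the groups compared. The ranges with single mice left out are ordered by the total called, higher and lower together. In Cd against control the split ranged from 464 higher and 2124 lower (without control mouse 29) to 759 and 3127 (without Se mouse 40). Between Cd+Se and Cd it was 611 and 101 without Cd+Se mouse 14, 591 and 176 without Cd mouse 5, and at most, by that total, 1837 and 327, without Se mouse 40. In the interaction it was 1 and 1 without control mouse 29, 2 and 1 without Cd+Se mouse 14, 11 and 4 without Se mouse 39, 206 and 14 without Cd mouse 1, and 321 and 27 without Se mouse 40. It ranged from 19 and 7 (without control mouse 29) to 60 and 43 (without Cd+Se mouse 15) between Cd+Se and control, from 21 and 7 (without Se mouse 44) to 143 and 50 (without Cd+Se mouse 15) between Cd+Se and Se, and from 0 and 0 to 2 and 0 (without Se mouse 41) between Se and control. Where a left-out mouse leaves 3 in its group, the shared spread of the model is used. No paired analysis was possible because the groups share no mouse numbers. Depth is unknown in TPM, so how far counting error limits Serpina3c, at 0.11 to 1.2 TPM, cannot be given.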
